A study of Mus musculus with 6 samples.

Results

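The mitochondrial carriers of the Slc25 family were examined in mouse gastrocnemius muscle after loss of its nerve. Members were all genes whose symbol in the platform annotation begins with Slc25, which gave 39 genes and 57 of the 25697 probes of the bead array. A probe was kept when it was detected above the negative control beads (detection p-value under 0.05) on at least 3 of the 6 arrays. This held for 38 of the 57 probes and for 29 of the 39 genes. The samples were 3 denervated gastrocnemius muscles from the left legs of adult male mice, taken 14 days after a piece of the sciatic nerve had been cut out under isoflurane, and 3 control muscles from right legs that kept their nerve. The strain is not given in the sources used here. No engineered allele, and no treatment but the lesion and its anesthesia, is named for either group, and the labels do not state how many mice gave the 6 muscles, so every p-value rests on the spread among these samples only. The control legs belonged to mice that had undergone the same operation on the other leg, and muscle of unoperated mice was not analysed here.

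Slc25 proteins sit mostly in the inner mitochondrial membrane and exchange solutes that the membrane would otherwise hold back. Adenine nucleotide and phosphate carriers supply ATP synthase with ADP and phosphate and return ATP to the cytosol. Other members move citrate, malate, aspartate, acylcarnitine, nucleotides, cofactors and iron, and so link cytosolic and mitochondrial metabolism. Skeletal muscle relies on the malate-aspartate shuttle, built from 2 carriers and paired cytosolic and mitochondrial enzymes, to bring the reducing power of glycolysis into the mitochondrion. Each member below is grouped by the substrate it is known or thought to carry.

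Across the 6 arrays, between 11551 and 12785 probes were detected, and replicate arrays correlated at 0.9878 to 0.9939 on the log2 scale. The 6 arrays shared 1 chip, on which each group had its own positions, so position and group cannot be told apart. The brightest member signal was 21255.64, against array maxima of 69263 to 71358, so that 0 members lay near the ceiling. Each member value averaged 20 to 60 beads, and the standard error over beads was under 10% of the signal for 35 of the 38 kept probes.

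The 4 genes past the threshold with at least a 2-fold difference had the following 250 bases before their annotated start (RefSeq, mouse build GRCm38.p6, 5′ to 3′ on the strand of the gene). They are shown because Slc25a33 and Slc25a36 are both pyrimidine nucleotide carriers and were called in opposite directions. Slc25a12 and Slc25a47 are the other members past that size. Capitals mark 4 kinds of motif. A GC box is spelled GGGCGG, or CCGCCC on the other strand. The next is a CCAAT box, which reads ATTGG on the other strand. The E-box marked here is CACGTG, its own reverse complement. The core of a cAMP response element is GACGTCAC, with GTGACGTC on the other strand, and its forward and reverse matches overlap in Slc25a36.
Slc25a33, chr4:149774268-149774517, minus strand: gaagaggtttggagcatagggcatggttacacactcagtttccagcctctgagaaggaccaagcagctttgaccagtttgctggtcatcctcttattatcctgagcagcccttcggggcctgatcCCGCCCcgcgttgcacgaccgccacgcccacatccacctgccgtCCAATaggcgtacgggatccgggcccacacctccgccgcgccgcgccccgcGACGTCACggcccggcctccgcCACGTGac
Slc25a36, chr9:97111042-97111291, minus strand: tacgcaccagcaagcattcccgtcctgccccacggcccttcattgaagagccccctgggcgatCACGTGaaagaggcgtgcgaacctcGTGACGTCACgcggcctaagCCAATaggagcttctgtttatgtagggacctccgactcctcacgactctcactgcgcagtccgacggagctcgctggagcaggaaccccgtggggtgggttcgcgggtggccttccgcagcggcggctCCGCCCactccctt
Slc25a12, chr2:71367756-71368005, minus strand: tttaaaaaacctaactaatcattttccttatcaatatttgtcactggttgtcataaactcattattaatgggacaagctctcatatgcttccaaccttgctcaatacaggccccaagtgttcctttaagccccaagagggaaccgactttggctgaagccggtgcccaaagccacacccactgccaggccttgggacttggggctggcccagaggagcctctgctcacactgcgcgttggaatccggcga
Slc25a47, chr12:108850879-108851128, plus strand: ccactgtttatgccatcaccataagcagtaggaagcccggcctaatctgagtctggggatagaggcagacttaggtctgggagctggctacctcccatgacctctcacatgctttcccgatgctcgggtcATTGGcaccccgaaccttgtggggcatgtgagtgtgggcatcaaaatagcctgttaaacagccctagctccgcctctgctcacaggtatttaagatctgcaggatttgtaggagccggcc
The windows of Slc25a33 and Slc25a36 each held 64.4% G and C, with 23 and 24 CpG pairs. Those of Slc25a12 and Slc25a47 held 49.6% and 54.4%, with 6 CpG pairs each, and the median of 32851 RefSeq windows was 52.4%. The 4 kinds of motif in capitals all occurred in both the Slc25a33 and the Slc25a36 window. In Slc25a33 the cAMP element core lay at -30 to -23 and the E-box at -8 to -3 from the start, while in Slc25a36 they lay at -160 to -153 and -187 to -182. The E-box and the cAMP element were added to the search after these sequences had been seen. The window of Slc25a12 held none of the motifs searched, and that of Slc25a47 held a CCAAT box at -120 to -116.

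Of the 29 genes with a kept probe, 11 were lower and 3 were higher in denervated than in control muscle (limma, Benjamini-Hochberg adjusted p under 0.05 over all genes' probes). The called share of 48.3% lay near the background, in which 43.8% of all 8740 genes tested were called. By direction the family was uneven. Lower calls took 37.9% of its kept genes, where 21.6% of all genes were called lower, and higher calls took 10.3%, where 22.2% of all genes were called higher. Counted by probe, 39.5% of the kept Slc25 probes were lower (15 probes, background 21.0%) and 15.8% were higher (6 probes, background 21.9%). The denervated and control values did not overlap in 15 of the 29 genes (51.7%), near the 55.0% of all genes without overlap. The median log2 fold change, denervated minus control, was -0.30 over the 29 genes and -0.0033 over all genes, and the values ran from -1.89 for Slc25a12 to 1.19 for Slc25a33. Bringing the arrays to 1 common median, without quantile normalization, put all genes at a median of 0.20 and the carriers at -0.07, which is -0.27 relative to all genes. Rises then made up 36.4% of the carriers' calls (4 higher, 7 lower), against 21.4% in the main comparison, and 73.2% of all calls, against 50.6%. In whole muscle, fewer cells of a type and less RNA per cell cannot be told apart.

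**Figure D1:**
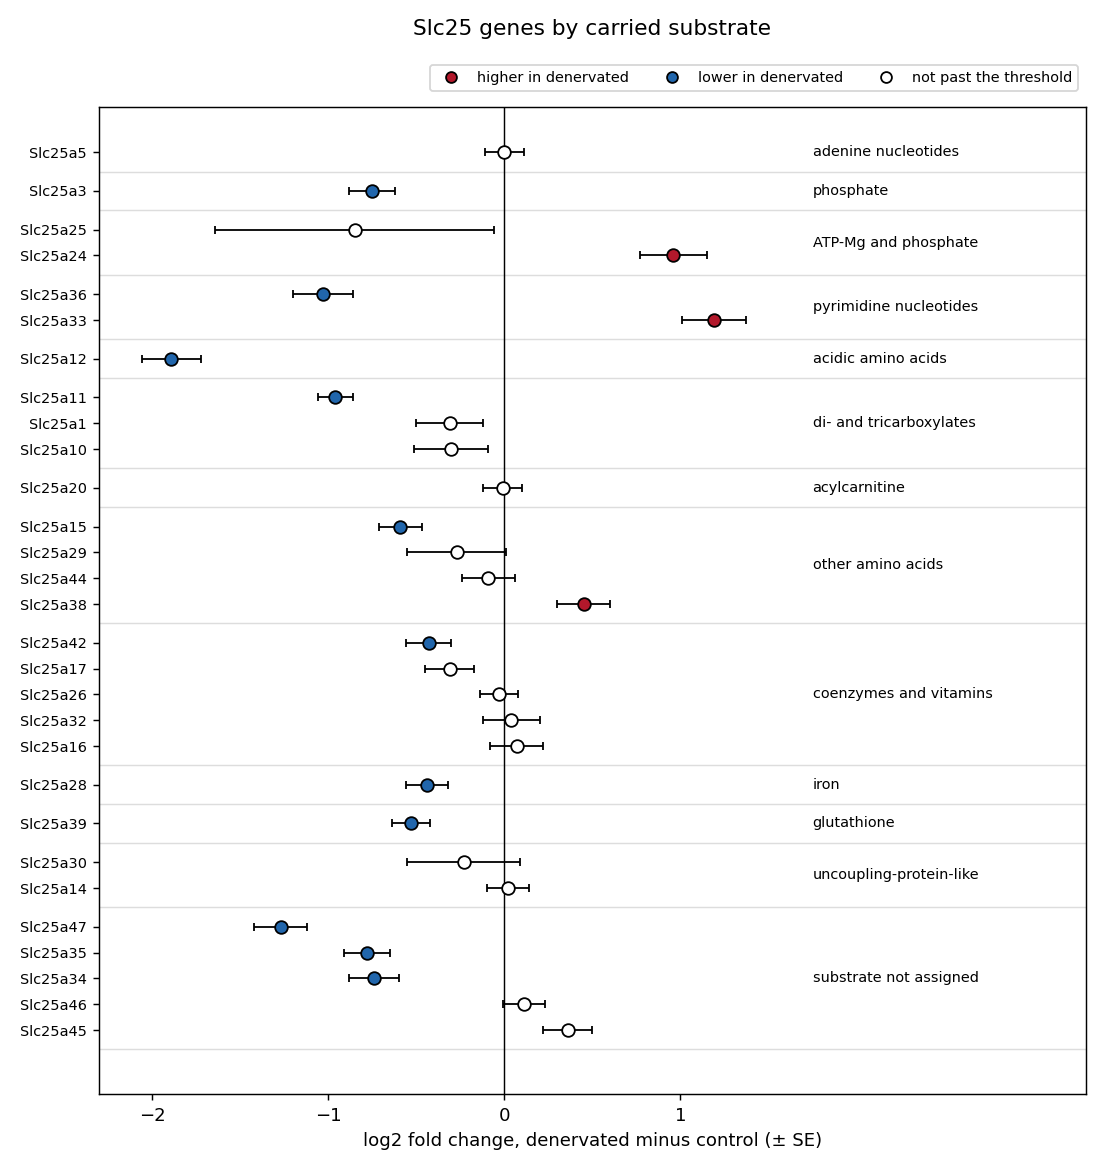
Log2 fold change, denervated minus control, of the 29 Slc25 genes with a kept probe (x axis, bars ± SE of the model), in rows grouped by carried substrate. Blue points are the 11 genes lower and red points the 3 genes higher in denervated muscle, and open points did not pass the threshold. Both pyrimidine nucleotide carriers passed it, on opposite sides of 0.

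Several cell type marker lists differed between the groups, and their part in the carrier values was not tested. All 8 kept macrophage and leukocyte markers of 10 on the array were higher in denervated muscle, with a summed normalized intensity of 9369 to 12073 in denervated and 3939 to 4522 in control arrays, while the leukocyte genes Ptprc and Fcer1g were not kept. Of 8 kept endothelial markers of 9 on the array, 5 were lower and 0 higher, with sums of 10769 to 11337 in denervated and 13376 to 16826 in control arrays, and Kdr was not kept. The 9 muscle fiber markers, all kept, summed to 477251 to 479490 in denervated and 470843 to 493291 in control arrays, with Des higher and none lower. This sum is compressed, since 2 of the 9 exceeded a signal of 60000, taken as near the scanner's ceiling, on every array and 7 exceeded it on at least 1 array. Fibroblast markers (9 of 9 kept, 3 higher, 1 lower) summed to 41389 to 46887 in denervated and 39233 to 44914 in control arrays. Adipocyte markers (4 of 7 kept, 1 lower) summed to 1176 to 2911 in denervated and 2251 to 4148 in control arrays, with Plin1, Pck1 and Retn not kept.

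The carriers of the malate-aspartate shuttle were lower after denervation. Slc25a12 (aralar), the calcium-activated carrier that exchanges mitochondrial aspartate for cytosolic glutamate, had log2 intensities of 10.55, 10.11 and 10.59 in denervated muscle, against 12.09, 12.33 and 12.49 in control muscle. Every denervated value lay below every control value, by more than the spread within either group. The means were 10.42 ± 0.27 in denervated and 12.31 ± 0.20 in control muscle (SD, n = 3 each), a log2 fold change of -1.89 ± 0.17 (SE; 95% interval -2.27 to -1.51), or 3.70-fold lower (limma adjusted p = 4.54e-05). This was the largest fall among the carriers tested. Its paralog Slc25a13 (citrin), which serves the same exchange chiefly in liver, had 2 probes, and neither was detected on any array.

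Slc25a11 exchanges oxoglutarate for malate and is the other carrier of the shuttle. It had 11.36, 11.36 and 11.35 in denervated muscle, against 12.35, 12.27 and 12.34 in control muscle (log2 intensity), and the groups were far apart for their spread. The log2 fold change was -0.96 ± 0.10, or 1.95-fold lower (limma adjusted p = 0.000146). Its other kept probes gave -1.19 ± 0.11 and -1.19 ± 0.15, both lower. The enzymes that work with these carriers were lower as well: the aspartate aminotransferases Got1 (-2.05 ± 0.12) and Got2 (-0.55 ± 0.12) and the malate dehydrogenases Mdh1 (-1.40 ± 0.11) and Mdh2 (-1.39 ± 0.11). Got1 and Mdh1 are the cytosolic forms, Got2 and Mdh2 the mitochondrial ones. The other carriers of acidic amino acids, Slc25a22 and Slc25a18, which import glutamate, were not kept: Slc25a22 was detected on 1 denervated array and Slc25a18 on none.

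**Figure D2:**
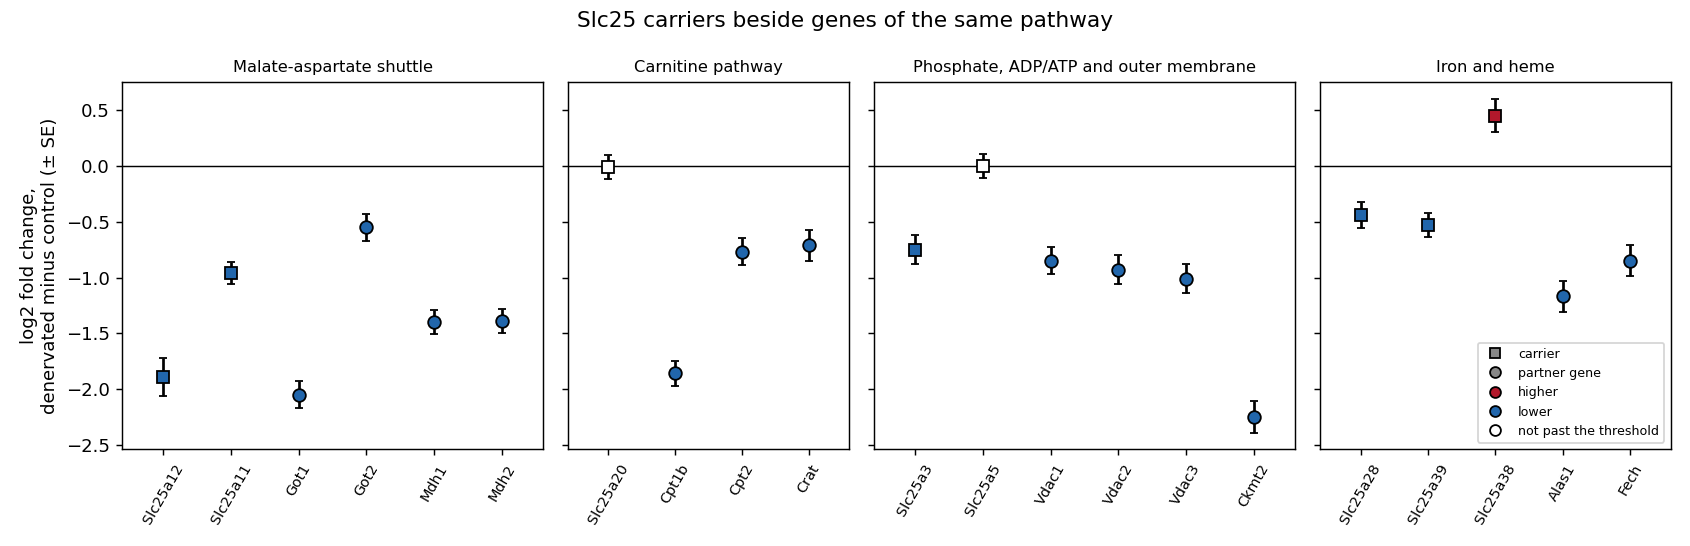
Log2 fold change, denervated minus control (y axis, bars ± SE of the model), of Slc25 carriers (squares) and of genes that act in the same pathway (circles). In the malate-aspartate panel all 6 genes were lower, while in the carnitine panel the carrier Slc25a20 stood at -0.01 beside Cpt1b at -1.86.

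Other carboxylate carriers did not pass the threshold. Slc25a1, which exports citrate for lipid synthesis, had a log2 fold change of -0.31 (95% interval -0.73 to 0.12, adjusted p = 0.218), and its groups overlapped. Slc25a10, the dicarboxylate carrier, had -0.30 (95% interval -0.79 to 0.18, adjusted p = 0.281). Both intervals include 0 and falls of the size seen in several called members. Citrate synthase (Cs), which makes the citrate inside the mitochondrion, was lower (-1.01 ± 0.12), and the cytosolic citrate lyase Acly had -0.35 and was not called. Slc25a21, the oxodicarboxylate carrier, was not detected on any array.

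For the substrates of ATP synthase, the phosphate carrier was lower and the measured ADP/ATP carrier was not called. Slc25a3, the phosphate carrier of the inner membrane, had 13.67, 13.51 and 13.57 in denervated muscle, against 14.36, 14.16 and 14.49 in control muscle (log2 intensity), with no overlap. The log2 fold change was -0.75 ± 0.13, or 1.68-fold lower (limma adjusted p = 0.00158). A dimmer probe of the gene had 11.46, 11.58 and 11.45 in denervated muscle, against 12.71, 12.54 and 12.73 in control muscle, a log2 fold change of -1.16 ± 0.11. Both probes passed the threshold, and the difference between them was not tested.

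Slc25a5, an ADP/ATP carrier of most tissues, had 12.45, 12.32 and 12.48 in denervated muscle, against 12.45, 12.45 and 12.34 in control muscle (log2 intensity). The groups overlapped, and the log2 fold change of 0.00 ± 0.11 had a 95% interval of -0.25 to 0.26 (limma adjusted p = 0.977). A RefSeq pseudogene carries Slc25a5 as an older name, and the probe's signal may include related copies. Slc25a31, the testis form, had 2 probes detected on no array, and the muscle form Slc25a4 is not analysed here. The voltage-dependent anion channels, through which the same solutes cross the outer membrane, were lower: Vdac1 had a log2 fold change of -0.85 ± 0.12, Vdac2 one of -0.93 ± 0.13 and Vdac3 one of -1.01 ± 0.13. Ckmt2, the creatine kinase that faces the intermembrane space and draws on exported ATP, was lower too (-2.25 ± 0.14).

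The ATP-Mg/phosphate carriers, which adjust the nucleotide content of the matrix when calcium rises, gave 1 rise and 1 value without a call. Slc25a24 had 7.10, 7.62 and 7.28 in denervated muscle, against 6.48, 5.99 and 6.63 in control muscle (log2 intensity), and every denervated value was the higher. The log2 fold change was 0.96 ± 0.19, or 1.95-fold higher (limma adjusted p = 0.00421), with 0.70 (adjusted p = 0.0444) at a second kept probe. With no background correction, or with the authors' normalized values, the log2 fold change of Slc25a24 was 0.46 and still called. These are dim probes, and the remaining probe was detected on 1 array of each group and not kept. Slc25a25 had 10.02, 9.52 and 8.22 in denervated muscle, against 11.63, 10.52 and 8.15 in control muscle (log2 intensity). In both groups the array labelled 3 was lowest, and the groups overlapped. The SDs of 0.93 in denervated and 1.78 in control muscle were the widest among the carriers, and the log2 fold change of -0.85 ± 0.79 had a 95% interval of -2.65 to 0.96 (limma adjusted p = 0.421). It turned on single arrays, being -1.82 ± 0.52 and past the threshold without control replicate 3 (adjusted p = 0.0286), -0.08 without control replicate 1 (adjusted p = 0.936) and -0.33 without denervated replicate 3 (adjusted p = 0.787). Slc25a41, a relative that lacks calcium control, was not detected on any array.

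The pyrimidine nucleotide carriers went opposite ways. These carriers supply the matrix with the nucleotides that mitochondrial DNA and RNA synthesis consume. Slc25a33 had 11.09, 10.85 and 10.48 in denervated muscle, against 9.36, 9.78 and 9.72 in control muscle (log2 intensity). Its lowest denervated value lay above its highest control value, and the log2 fold change was 1.19 ± 0.18 (95% interval 0.78 to 1.60), or 2.28-fold higher (limma adjusted p = 0.000942). Slc25a36 had 8.42, 8.82 and 8.93 in denervated muscle, against 9.89, 9.83 and 9.53 in control muscle. Here the lowest control value lay above the highest denervated value, and the log2 fold change was -1.03 ± 0.17 (95% interval -1.41 to -0.65), or 2.04-fold lower (limma adjusted p = 0.00126). Each gene had 1 probe. Both calls held under all 19 alternative settings. The promoter windows of this pair, printed above, had the same 4 kinds of motif at different distances from the start. Among these, the E-box and the cAMP element were added to the search after the windows had been seen, so their sharing is no test.

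**Figure D3:**
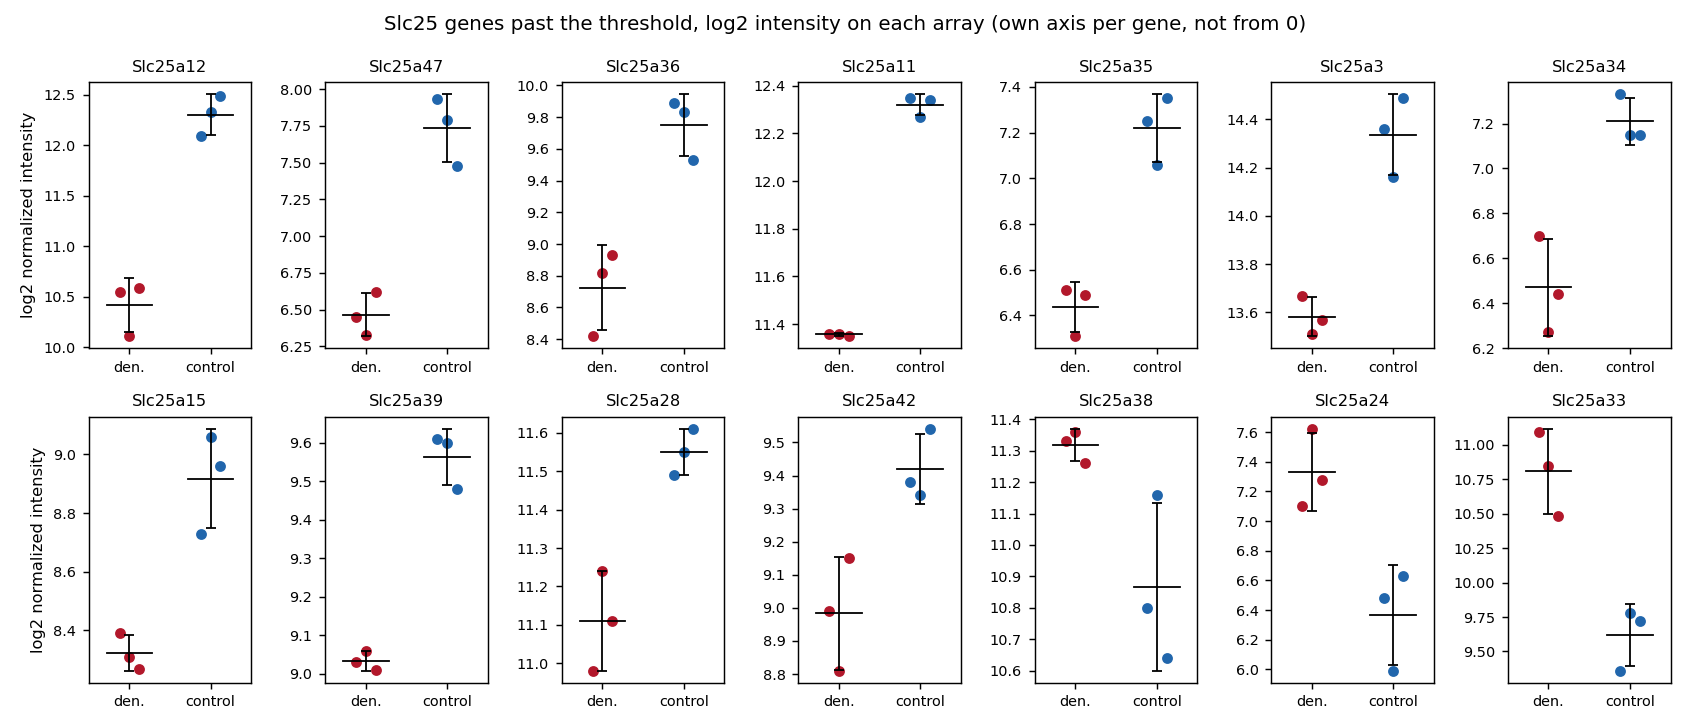
Normalized log2 intensity on each array of the 14 Slc25 genes past the threshold (y axis, each panel with its own scale, not starting at 0), with 3 denervated arrays on the left (red) and 3 control arrays on the right (blue) of each panel. Horizontal lines are means and bars SD; the groups overlap in none of the 14 panels.

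Slc25a20 carries acylcarnitines into the matrix for fatty acid oxidation and exchanges them for free carnitine. It had 12.91, 12.69 and 12.70 in denervated muscle, against 12.81, 12.77 and 12.76 in control muscle (log2 intensity). The groups overlapped, and the log2 fold change was -0.01 ± 0.11, with a 95% interval of -0.27 to 0.25 (limma adjusted p = 0.93). A dimmer kept probe had 9.16, 9.14 and 9.26 in denervated muscle, against 9.09, 8.88 and 8.86 in control muscle, with a log2 difference of 0.25 that was not called (adjusted p = 0.125). This was the 1 gene among 7 with several kept probes in which the probes differed in sign, and its remaining probe was not detected on any array. The enzymes before and after the carrier were lower. Cpt1b, the muscle carnitine palmitoyltransferase of the outer membrane, had 11.32, 11.36 and 11.28 in denervated muscle, against 13.23, 13.18 and 13.12 in control muscle, a log2 fold change of -1.86 ± 0.11 (limma adjusted p = 4e-06). Cpt2 of the inner membrane had -0.77 ± 0.12, and carnitine acetyltransferase (Crat) had -0.71 ± 0.14.

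**Figure D4:**
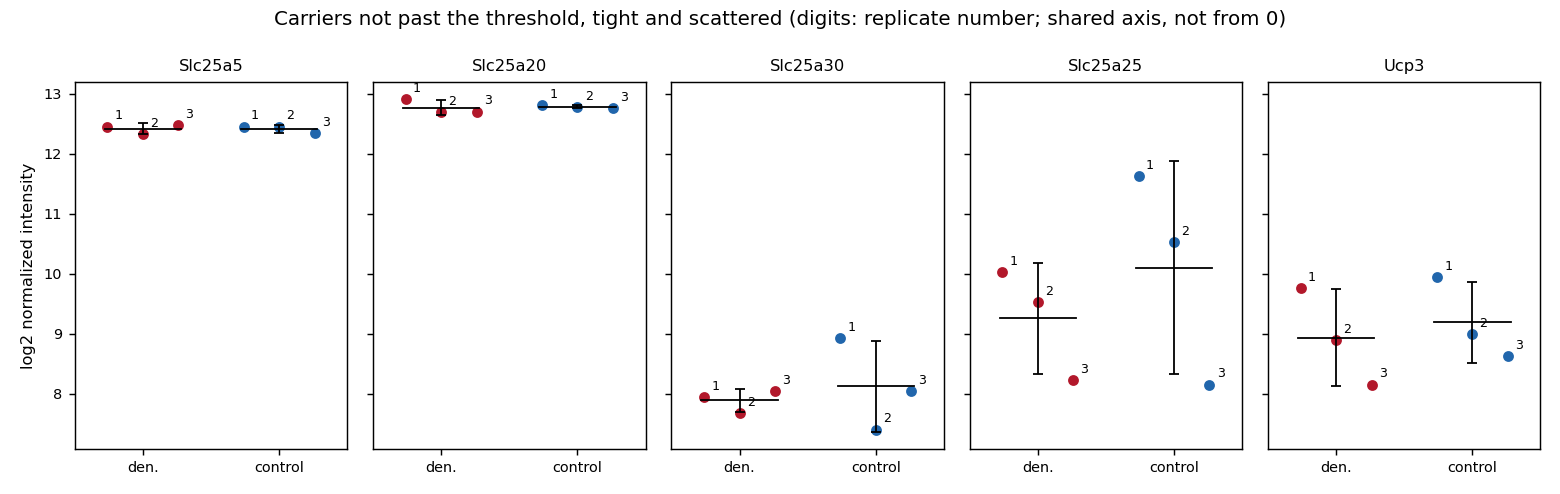
Normalized log2 intensity on each array (y axis, shared scale not starting at 0) for 4 Slc25 genes and Ucp3, none past the threshold, with denervated arrays left (red) and control arrays right (blue) in each panel, means as lines and SD as bars. Slc25a5 and Slc25a20 were tight in both groups, while Slc25a25 spread from 8.22 to 10.02 in denervated and from 8.15 to 11.63 in control arrays.

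Among carriers of other amino acids, 1 fell, 1 rose and 2 did not pass the threshold. Slc25a15, which imports ornithine and is part of the urea cycle in liver, averaged 8.32 ± 0.06 in denervated and 8.91 ± 0.17 in control muscle (log2 intensity, SD, n = 3 each), a log2 fold change of -0.59 ± 0.12 (limma adjusted p = 0.00518), with -0.69 at its other probe. The ornithine aminotransferase Oat was lower too (-0.54 ± 0.12). Slc25a44, a carrier of branched-chain amino acids, had -0.09 and was not called (95% interval -0.43 to 0.26), whereas Bcat2, the mitochondrial enzyme that transaminates them, was lower (-0.52 ± 0.13). Slc25a29, the basic amino acid carrier, had -0.27 with overlapping groups (95% interval -0.91 to 0.36).

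Slc25a38 imports glycine, the first substrate of heme synthesis, and in humans its loss causes an inherited sideroblastic anemia. It had 11.33, 11.36 and 11.26 in denervated muscle, against 10.80, 11.16 and 10.64 in control muscle (log2 intensity). The denervated values lay above the control values with no overlap, and the log2 fold change was 0.45 ± 0.15, or 1.37-fold higher (limma adjusted p = 0.0367), with 0.38 and 0.46 at its other probes. This call sat close to the threshold. Leaving out 1 array ended it for denervated replicates 1, 2 and 3 (adjusted p = 0.0904, 0.106 and 0.0609, in that order) and for control replicates 1 and 3 (0.0874 and 0.109).

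**Figure D5:**
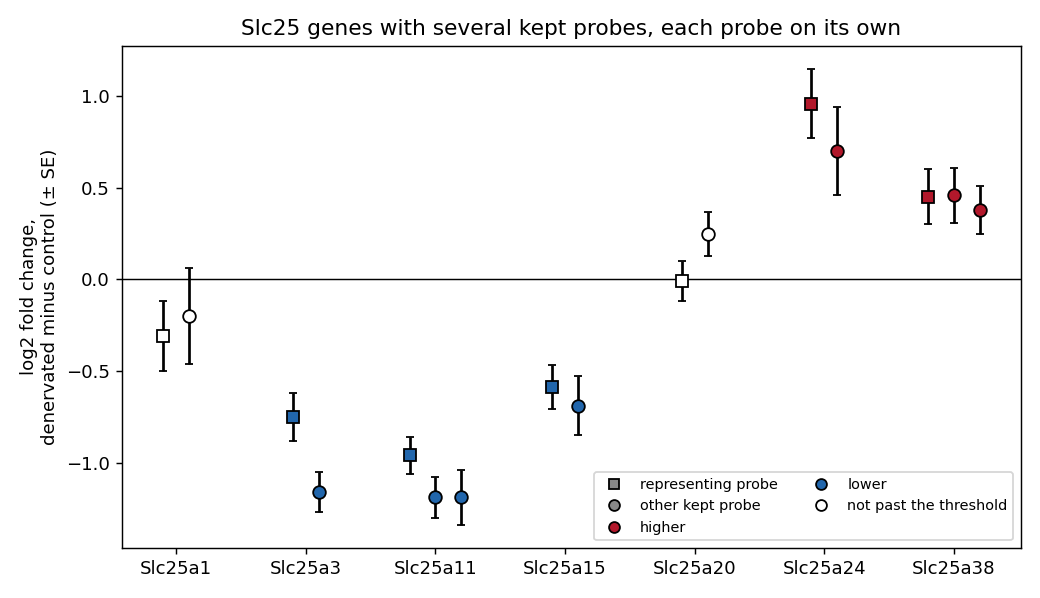
Log2 fold change, denervated minus control (y axis, bars ± SE of the model), of each kept probe of the 7 Slc25 genes with several kept probes. Squares are the brightest probe, which represents the gene, and circles the others; within each gene the probes had the same call, and in Slc25a20 they lay on both sides of 0 without passing the threshold.

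Carriers tied to iron, glutathione and heme were lower in the main comparison, apart from Slc25a38. Slc25a28 (mitoferrin 2), which imports iron, averaged 11.11 ± 0.13 in denervated and 11.55 ± 0.06 in control muscle (log2 intensity, SD, n = 3 each), a log2 fold change of -0.44 ± 0.12 (limma adjusted p = 0.0162). Without denervated replicate 1 it was -0.37 and not called (adjusted p = 0.0631). Slc25a39, a carrier that brings glutathione into mitochondria, averaged 9.03 ± 0.03 in denervated and 9.56 ± 0.07 in control muscle, a log2 fold change of -0.53 ± 0.11 (adjusted p = 0.00431). Its paralog Slc25a40 had 3 probes, none detected on any array. With each array shifted to 1 median and no quantile normalization, Slc25a28 had -0.21 and Slc25a39 had -0.27. Neither was then called (limma adjusted p = 0.226 and 0.0964). Of the heme enzymes, Alas1, which joins glycine to succinyl-CoA, was lower (log2 fold change -1.17 ± 0.14), as was ferrochelatase (Fech, -0.85 ± 0.14 at its brightest probe). Other kept probes of Fech had -0.63 ± 0.15, called lower, and -0.24 ± 0.13, not called (limma adjusted p = 0.161). Of 4 erythrocyte markers, all kept and 1 near the ceiling, the erythroid synthase Alas2 was lower (log2 fold change -1.66 ± 0.54) and 3 were not called: Hba-a1 had -0.65, Hbb-b2 had -1.23 and Slc4a1 had -1.09. The 4 markers had a summed normalized intensity of 26469 to 76698 in denervated and 70425 to 80146 in control arrays. These sums overlap and are compressed by that ceiling. Their part in the values of Slc25a28, Slc25a39 and Slc25a38 was not tested.

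The coenzyme and vitamin carriers gave 1 fall among 5 kept genes, with a median log2 fold change of -0.03. Slc25a42, which carries coenzyme A, averaged 8.98 ± 0.17 in denervated and 9.42 ± 0.11 in control muscle (log2 intensity, SD, n = 3 each), a log2 fold change of -0.43 ± 0.13 (limma adjusted p = 0.0255). Leaving out denervated replicate 1 or 2 ended the call (adjusted p = 0.0644 and 0.0983), as did leaving out control replicate 3 (0.0753). Slc25a17, a peroxisomal member that carries coenzyme A and nucleotide cofactors, had -0.31 (95% interval -0.62 to 0.01, adjusted p = 0.102). The S-adenosylmethionine carrier Slc25a26 had -0.03, the narrowest estimate of the group (95% interval -0.28 to 0.21). Slc25a32, which carries folate and FAD, had 0.04 (95% interval -0.32 to 0.41), and Slc25a16, a carrier linked to coenzyme A, had 0.07 (95% interval -0.27 to 0.41). The folate enzyme Mthfd2 was lower (-0.57 ± 0.15) and Shmt2 was not called (-0.10 ± 0.12).

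The relatives of the uncoupling proteins did not pass the threshold. Slc25a14 had a log2 fold change of 0.02 (95% interval -0.26 to 0.30). Slc25a30 had 7.94, 7.68 and 8.04 in denervated muscle, against 8.92, 7.40 and 8.04 in control muscle (log2 intensity), a log2 fold change of -0.23 with a 95% interval of -0.97 to 0.51. The control arrays alone spanned both sides of the denervated values, and without control replicate 1 the log2 fold change was 0.17. Slc25a27 was detected on 2 denervated arrays and 0 control arrays at 1 of its 2 probes and was not kept. Of family proteins under other names, the muscle uncoupling protein Ucp3 had 9.76, 8.89 and 8.15 in denervated muscle, against 9.94, 8.99 and 8.63 in control muscle, and was not called (-0.25 ± 0.42, adjusted p = 0.66). Ucp1, of brown fat, was not kept. Mtch1, an outer membrane relative, had 14.13, 13.95 and 13.92 in denervated muscle, against 13.04, 13.38 and 13.08 in control muscle, and was higher by 0.84 ± 0.13 on the log2 scale (limma adjusted p = 0.0012), with 1.09 at its other probe. Mtch2, an outer membrane insertase related to it, had 0.00 ± 0.12 at its brightest probe and was not called there or at its other probes (-0.24 and -0.25).

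Of 7 members with no substrate assigned here, 5 were kept and 3 of these were lower. Slc25a47 had 6.45, 6.33 and 6.62 in denervated muscle, against 7.93, 7.79 and 7.48 in control muscle (log2 intensity). The groups did not overlap, and the log2 fold change of -1.27 ± 0.15, or 2.41-fold lower (limma adjusted p = 0.000227), was the fall next in size to that of Slc25a12 in the main comparison. The call held with no background correction and with the authors' normalized values, but the log2 fold change was -0.66 in both, where Slc25a11 (-0.93 and -0.94) and Slc25a36 (-0.85 and -0.86) stood lower. Slc25a35 averaged 6.44 ± 0.11 in denervated and 7.22 ± 0.15 in control muscle, a log2 fold change of -0.78 ± 0.13 (adjusted p = 0.00125). Its close paralog Slc25a34 averaged 6.47 ± 0.22 in denervated and 7.21 ± 0.11 in control muscle, a log2 fold change of -0.74 ± 0.14 (adjusted p = 0.00302), while its second probe was not detected on any array. These are dim probes, and their fold changes depended on the background correction: without it Slc25a35 had -0.37 and Slc25a34 had -0.35, both still called. Slc25a45 had 7.81, 7.40 and 7.42 in denervated muscle, against 7.12, 7.26 and 7.17 in control muscle. All denervated values were the higher, yet the log2 fold change of 0.36 ± 0.14 was not called (adjusted p = 0.0684). Slc25a46, an outer membrane protein linked to mitochondrial dynamics, had 0.11 and was not called (adjusted p = 0.495).

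A further 10 Slc25 genes, each with probes on the array, were too dim to test, and they include several paralogs named above. Slc25a13, Slc25a18, Slc25a21, Slc25a31, Slc25a40, Slc25a41, Slc25a48 and Slc25a53 were detected on 0 arrays, Slc25a22 on 1 and Slc25a27 on 2. Of the 19 probes that were not kept, 16 were detected on no array, and values below this limit were not detectable by these beads.

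Beside the carriers, 14 of 21 partner enzymes were lower and 0 were higher, with a median log2 fold change of -0.57, against -0.30 for the carriers and -0.0033 for all genes. Of 13 other mitochondrial membrane transport genes, 4 were lower and 2 higher, with a median of -0.03. Over all genes, 21.6% were lower and 22.2% higher, and the difference between the lists was not tested. The 4 lower ones were the Vdac genes and Abcb8, a transporter of the inner membrane (-0.58 ± 0.10). The higher ones were Tspo, a cholesterol-binding protein of the outer membrane (0.66 ± 0.11), and Micu2, a regulator of the calcium uniporter (0.49 ± 0.11). Other kept probes of Tspo had 0.69 ± 0.13, called higher, and 0.40 ± 0.15, not called (limma adjusted p = 0.0622). The uniporter pore gene Mcu had 0.33 at its brightest probe, which was not called (adjusted p = 0.12), and 0.80 ± 0.16 at its other kept probe, which was called higher (adjusted p = 0.00343).

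A promoter window was found for 32 of the 39 carriers, among them 10 of the 11 lower and all 3 higher genes. The GC box occurred in 24 of the 32 (8 of 10 lower, 2 of 3 higher) and in 32.7% of all windows. All windows, here and below, include those of genes without a kept probe, and a share over kept genes was not taken. The CCAAT box occurred in 16 of the 32 (6 of 10 lower, 1 of 3 higher) and in 33.8% of all windows. The E-box CACGTG was in 7 of 32 and in 6.02% of all windows. The cAMP element core was in 3 of 32, namely Slc25a33, Slc25a36 and Slc25a25, and in 1.67% of all windows. Both motifs were added to the search after the Slc25a33 and Slc25a36 windows had been seen. Their counts include those windows and cannot be read against the share of all windows. Motifs of factors of mitochondrial gene expression were rare in these windows and in all windows alike. The AAGGTCA element bound by estrogen-related receptors was in the window of Slc25a34 (1 of 32, all windows 4.08%), the GABP site CCGGAAGT in that of Slc25a20 (1 of 32, all windows 2.88%), and the Nrf1 core GCGCATGC in 1 member that was not kept (all windows 2.26%). The YY1 site AAGATGGC was in 0 of 32 (all windows 1.56%), TATAAA in 2 of 32 (all windows 12.4%), and the E-box CAGCTG in 3 of 32 (all windows 13%). Each motif was read on both strands, and a match is a description of the letters.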

How the data were processed

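The arrays were Illumina MouseRef-8 v2.0 bead chips hybridized with biotin-labelled cRNA made from TRIzol-extracted, rRNA-depleted RNA, and the study's methods name GenomeStudio V2011.1 (its Gene Expression Module, V1.9.0) for quantile normalization. The deposited table used here held, per probe and array, the mean bead signal intensity before normalization, its standard error over beads, and a detection p-value that the authors' software computed against negative control beads. A bead count per probe was deposited beside them. The authors' quantile-normalized intensity values (array medians 163.5 to 163.9) served as an alternative only. No sample column was left out (0 columns).

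With neqc (limma 3.58.1, R 4.3.3), intensities had their background estimated from detection p-values and corrected. They received an offset of 16 and were then quantile-normalized on the log2 scale. Fold changes of dim probes depended on these steps: Slc25a35 had -0.78 here, -0.60 with an offset of 50 and -0.37 without background correction. Whether such values are too small or too large was not tested. Probes with a detection p under 0.05 on at least 3 of 6 arrays were kept (12546 of 25697 probes), and a gene was represented by its brightest kept probe (8740 genes). Denervated and control were compared with lmFit and eBayes over all kept probes, two-sided, with a Benjamini-Hochberg threshold of 0.05. Only the linear model step was tried on simulated log2 values of kept probes, without background correction, normalization or filtering. Gene names came from the platform annotation (23978 probes with 1 gene, 1719 with none); all 39 members were matched to RefSeq by gene number. The members, substrate groups and other lists were chosen with earlier results of these data known. Every member is named. Values per array are given for called members with a log2 fold change of at least 1 in size. They are also given for members whose probes, or whose relatives in the same substrate group, differ, and for others that the text turns on. From other lists, counts and up to 4 of the largest called members are given, with members of the same pathway named beside a carrier. The alternatives were other background corrections, offsets, scalings, filters and moderations, and a Student's t-test. A mean over probes, a replicate block and leaving out each array were the others. The study's methods list Student's t-test in general and name no test for the arrays. The number of arrays limits the precision.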

Additional observations from a re-analysis of the deposited data

How the results depend on the processing

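Of 548 values recomputed for the carriers over 19 alternatives, 505 kept their direction and their side of the threshold, 18 lost the call, 2 gained one and 23 changed sign. The sign changes were in 9 genes that were not called, and 0 were in called genes. With each array shifted to 1 median and no quantile normalization, Slc25a20 stood at 0.21, Slc25a26 at 0.22, Slc25a30 at 0.01 and Slc25a44 at 0.16. With that median taken over probes detected on all 6 arrays, Slc25a5 stood at -0.05, Slc25a14 at -0.05 and Slc25a46 at -0.11, and with the mean of all kept probes Slc25a20 stood at 0.12. With 1 array left out, values ran from -0.03 to 0.05 for Slc25a5, -0.05 to 0.10 for Slc25a14, -0.07 to 0.21 for Slc25a16, -0.09 to 0.02 for Slc25a20, -0.59 to 0.17 for Slc25a30, -0.04 to 0.20 for Slc25a32 and -0.19 to 0.02 for Slc25a44. The calls of Slc25a3, Slc25a11, Slc25a12, Slc25a33, Slc25a34, Slc25a35, Slc25a36 and Slc25a47 held under all 19. The median of the kept carriers was -0.18 with no background correction, -0.23 with an offset of 50, -0.07 with a shift of each array to 1 median and no quantile normalization, -0.18 with the authors' quantile-normalized values and -0.08 with no filter on dim probes, which adds the 10 genes not kept. Leaving out 1 array at a time gave medians of -0.32 to -0.19. With the shift to 1 median, 7 carriers were lower, as Slc25a15 (adjusted p = 0.0951), Slc25a39 (0.0964), Slc25a28 (0.226) and Slc25a42 (0.323) lost their calls. Slc25a45 was then called higher (0.59, limma adjusted p = 0.0111), and over all genes 3042 were higher and 1116 lower. With the Student's t-test after Benjamini-Hochberg adjustment, 1 carrier gene and 1 probe were higher, since Slc25a24 (0.0504) and Slc25a38 (0.102) missed the threshold. In that setting 10 carriers were lower, since Slc25a42 (0.0567) missed it. Over all 8740 genes, 1555 were then higher and 1452 lower. Unadjusted, that test called 3 carriers higher and 11 lower, and 2102 higher and 2024 lower over all genes. Probes called higher were 2 with no filter on dim probes and 3 with arrays shifted to 1 median over probes detected on all 6 arrays, an alternative added after seeing the data, and 2 to 4 with 1 array left out (lowest without each denervated array). Carriers called were 9 to 11 lower and 2 to 3 higher with 1 array left out. Over all genes, 1475 to 1696 were lower and 1518 to 1754 higher in those fits. No count over all probes was taken for the alternatives. Equal replicate numbers were not treated as pairs, since the labels do not say that a number marks a mouse. The control was, however, the other leg of an operated mouse. The deviations of equally numbered samples correlated at -0.02, 0.16 and 0.16. Unequally numbered samples correlated at -0.23 to 0.13, with denervated replicate 1 closer to control replicate 2 (0.13) than to control replicate 1. In the fit that took the replicate number as a block, 3 genes were higher and 11 lower and each kept its call. In that fit 4 probes were higher in place of 6, and 1911 genes were higher and 1883 lower over all genes. Slc25a25 had an SE of 0.29 there, against 0.79, and was still not called (adjusted p = 0.0537). The cause was not tested where none is given. Only 3 arrays a group, and dim probes for Slc25a24, Slc25a34, Slc25a35 and Slc25a47, limit the values.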
